A study of Rattus norvegicus with 12 samples.

Results

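Plasminogen activators and their inhibitors were followed as 8 genes, Plat, Plau, Plaur, Plg, Serpine2, Serpini1, Serpinb2 and Lrp1. They were chosen by symbol among the 17268 genes of the count table, and all 8 were found there. RNA was sequenced from the cerebral cortex of adult male Sprague Dawley rats in 4 groups, with 3 libraries in each and 12 in all. Sham rats underwent the operation but no clot was injected. In Model rats a clot of donor blood was placed in the middle cerebral artery, which gives an embolic stroke, and was left untreated. The rt-PA rats had the same clot and received recombinant tissue plasminogen activator (rt-PA), the clot-dissolving drug, at 6 h. The rt-PA+Acu rats had the clot, Xingnao Kaiqiao acupuncture at the Shuigou and Neiguan points at 2 h and rt-PA at 6 h. None of the 4 groups was given acupuncture without rt-PA. The labels do not give the hemisphere or the part of the cortex that was taken. The labels number the libraries as separate samples without tying them to single animals, so p-values measure the spread between these samples, which may be partly technical.

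Plasmin, the protease that dissolves fibrin, is made from the zymogen plasminogen (Plg) by tissue plasminogen activator (Plat) or urokinase (Plau), and urokinase acts at the cell surface on its receptor (Plaur). Serpins stop the activators. Protease nexin-1 (Serpine2) is made by glia and neurons, and neuroserpin (Serpini1) is the neuronal inhibitor of tissue plasminogen activator. Plasminogen activator inhibitor 2 (Serpinb2) can be made by activated myeloid cells. Lrp1 is the endocytic receptor that clears activators bound to their inhibitors. Rat Plat transcript is what the counts measure, because the drug is a protein and adds no RNA.

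The promoters of Plau, Plaur and Serpinb2 are shown because these members had the largest differences between Model and Sham. Each runs from 250 bases before to 50 bases after the gene's start, 5′ to 3′ on the gene's strand, as RefSeq gives it on the GRCr8 build, which is not the mRatBN7.2 build of the counts. They lie at chr15:3511938-3512237 (minus strand), chr1:89181113-89181412 (plus strand) and chr13:24055771-24056070 (plus strand). Capitals mark the AP-1 motif TGANTCA or the SP1 motif GGGCGG on either strand.
Plau: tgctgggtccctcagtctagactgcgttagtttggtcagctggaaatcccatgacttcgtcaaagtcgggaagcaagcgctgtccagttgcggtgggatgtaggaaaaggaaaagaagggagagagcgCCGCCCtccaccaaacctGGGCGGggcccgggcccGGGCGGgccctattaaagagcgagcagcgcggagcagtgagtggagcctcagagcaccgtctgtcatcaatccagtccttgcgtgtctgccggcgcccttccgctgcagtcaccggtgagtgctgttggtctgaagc
Plaur: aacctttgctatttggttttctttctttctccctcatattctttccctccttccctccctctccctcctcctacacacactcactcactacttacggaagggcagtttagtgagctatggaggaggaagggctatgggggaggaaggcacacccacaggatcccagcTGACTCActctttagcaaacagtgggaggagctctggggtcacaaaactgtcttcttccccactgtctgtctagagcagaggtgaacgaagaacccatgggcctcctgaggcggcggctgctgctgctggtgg
Serpinb2: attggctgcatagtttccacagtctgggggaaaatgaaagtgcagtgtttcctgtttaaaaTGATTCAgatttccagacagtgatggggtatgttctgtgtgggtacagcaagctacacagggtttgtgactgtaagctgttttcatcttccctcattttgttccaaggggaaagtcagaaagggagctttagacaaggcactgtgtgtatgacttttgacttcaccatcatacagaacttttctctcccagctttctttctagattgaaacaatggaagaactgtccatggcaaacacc
The Plaur promoter held 1 AP-1 match, at positions -83 to -77 from the start, and the Serpinb2 promoter held 1, at -189 to -183. The Plau promoter held no AP-1 match and 3 SP1 matches, at -122 to -117 on the opposite strand and at -104 to -99 and -87 to -82. AP-1 matches were found in 7.33% and SP1 matches in 33.1% of 33469 rat promoters of the same length. Of the 7 members with a promoter in the table, Serpine2 held 6 SP1 matches, of which a pair overlap, Lrp1 held 1, and Serpini1 and Plg held no match to any motif searched. The core GCGTG of the hypoxia response element was found in Plau, at -7 to -3, and in Lrp1, at -9 to -5 on the opposite strand, and in 29.7% of all promoters. Its other form, ACGTG (19.3% of all promoters), the TATA box TATAAA (14.2%), the cAMP response element TGACGTCA (1.83%) and both NF-kappaB motifs searched (0.362% and 0.353%) were in none of the 7. A match is a run of letters in this window and not a measured site of binding.

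Total counts ranged from 11678450 to 13616935 per library, so that 3 counts stood for 0.208 to 0.262 CPM (counts scaled to a common library size, with TMM factors). Libraries differed within groups in ways that touched the members. Model replicate 3 lay in the Sham range for 11 genes for which the other 8 libraries of clot-injected rats lay more than 1.5-fold outside it, one of them the ribosomal protein gene Rpl39 (142 counts, against 105 to 151 in Sham, and 488 to 990 in those 8). The same count was 37, 15 and 1 genes for rt-PA+Acu replicates 1, 2 and 3 and 0 for the remaining 5 libraries of clot-injected rats. Among the rt-PA+Acu libraries, replicate 3 had the highest levels of Plau, Plaur and Serpinb2 and the lowest level of Serpini1. All 8 neuronal markers were detected in every group, and their summed level was 9590 to 10200 CPM in Sham, 6410 to 6580 in Model and 4950 to 6300 in rt-PA, against 6600 to 9820 in rt-PA+Acu, where replicate 3 was the lowest. The 6 oligodendrocyte markers spread more widely within groups. They summed to 21100, 8750 and 3210 CPM in rt-PA+Acu replicates 1, 2 and 3, to 2690, 11400 and 3360 in rt-PA and to 1670, 3800 and 8500 in Model. In Sham they summed to 12000 to 17900 CPM. The part of this spread in the levels of the members was not tested. In bulk tissue, fewer cells of a type and less RNA per cell cannot be told apart.

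Each pair of groups was tested over all genes by the quasi-likelihood test of edgeR, with p-values adjusted after Benjamini and Hochberg, and a gene was called when its adjusted p was under 0.05 and it differed by more than 2-fold. Between Model and Sham, 7 of the 8 members passed the filter on low counts and 3 were called (Plau, Plaur and Serpinb2, all higher in Model), where 21.5% of all genes tested were called and 9.43% were called higher. The adjusted p alone was passed by all 7 tested members, against 54% of all genes. Between rt-PA and Model, 0 of 7 tested members were called, as were 0% of all genes. The same comparison gave 0 members at an unadjusted p under 0.05, against 9.92% of all genes, and 0 called by DESeq2, against 0.595% of all genes with a DESeq2 adjusted p. Between rt-PA+Acu and rt-PA, 4 of 7 tested members were called (Plat, Plau and Plaur lower and Serpini1 higher in rt-PA+Acu), where 15.3% of all genes were called, 8.16% lower and 7.17% higher. At the adjusted p alone, 5 of these 7 passed, against 34.8% of all genes. Between rt-PA+Acu and Sham, 0 of 6 tested members were called, where 2.06% of all genes were, and 0 passed the adjusted p alone, against 5.1% of all genes. Of these members 3 had an unadjusted p under 0.05 (Plat, Plau and Serpine2), against 23.2% of all genes, and DESeq2 called 1, Plau, against 3.3% of all genes. Between rt-PA and Sham, 3 of 7 tested members were called (Plau, Plaur and Serpinb2, all higher in rt-PA), where 22.6% of all genes were called and 11% were called higher, and 6 of 7 passed the adjusted p alone, against 54.7% of all genes. Without Model replicate 3 the log2 fold changes of the 3 called members between Model and Sham were 6.21 for Plau, 4.32 for Plaur and 6.38 for Serpinb2, all still called. These comparisons share libraries and are not independent of each other.

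**Figure D1:**
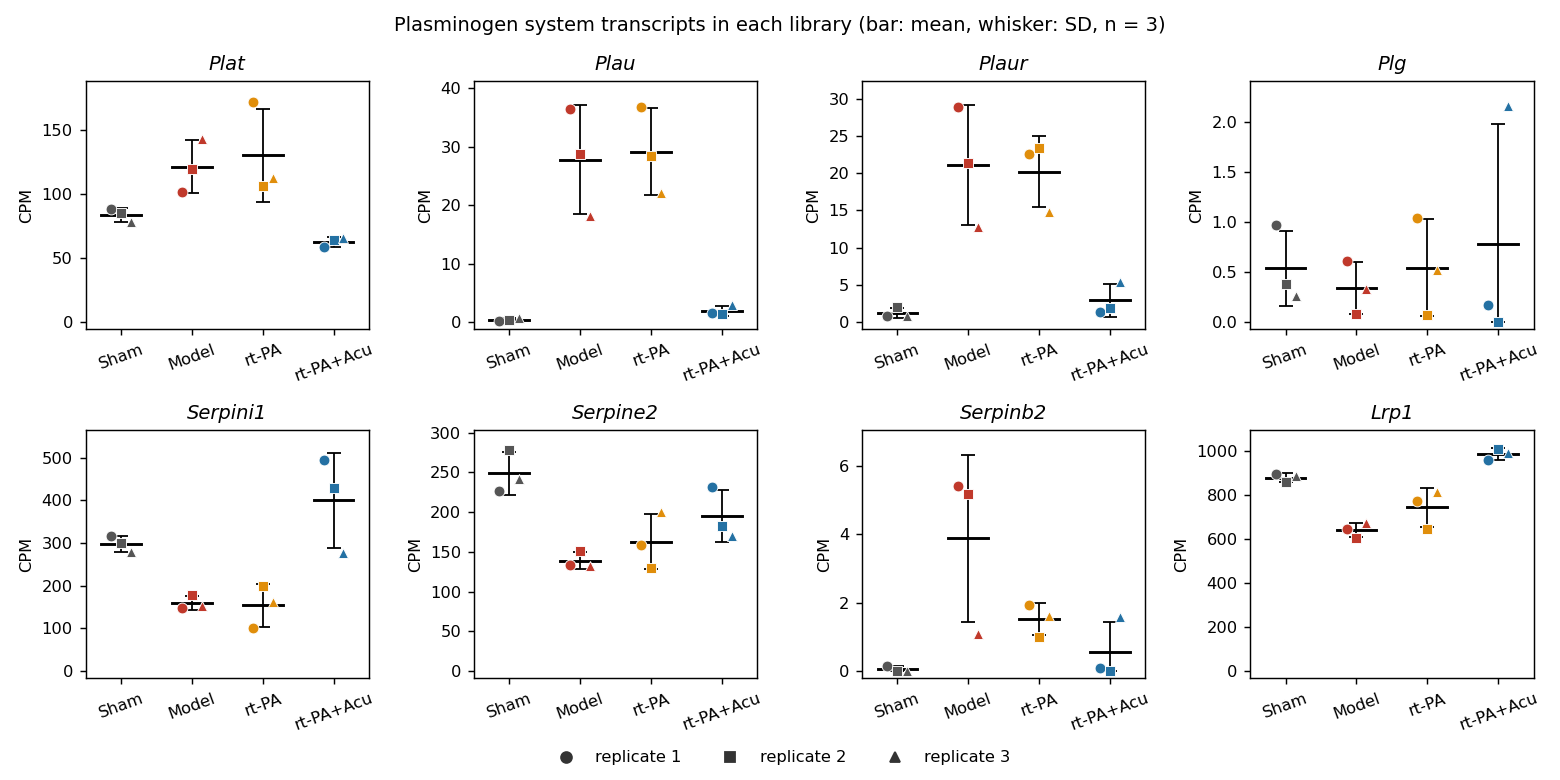
CPM of the 8 members in each library by group, with points for libraries, bars for means and whiskers for the SD (n = 3), cut at 0. Plau and Plaur were high in all 6 Model and rt-PA libraries and low in Sham and rt-PA+Acu, and Serpini1, Serpine2 and Lrp1 were lower in Model than in Sham.

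Plat, the activator given as the drug, was measured at 88.1, 85.5 and 78.0 CPM in the 3 Sham libraries, and at 102, 119 and 143 CPM in Model. The rt-PA libraries had 172, 107 and 113 CPM and the rt-PA+Acu libraries 58.5, 64.0 and 65.6 CPM. All Model and rt-PA libraries lay above Sham and all rt-PA+Acu libraries below it, while Model and rt-PA overlapped. The order of the means was rt-PA (130 ± 36.3 CPM, SD, n = 3), Model (121 ± 20.8), Sham (83.9 ± 5.27) and rt-PA+Acu (62.7 ± 3.74). Plat was higher in Model than in Sham by 0.54 on the log2 scale (SE 0.13, edgeR adjusted p = 0.00759), less than 2-fold. Between rt-PA and Sham the log2 fold change was 0.62 (SE 0.18, edgeR adjusted p = 0.0189), and 0.38 without rt-PA replicate 1. Leaving out 1 library gave an edgeR adjusted p of up to 0.0699 there. Plat was 2.08-fold lower in rt-PA+Acu than with rt-PA alone (log2 fold change -1.05, SE 0.19, edgeR adjusted p = 0.00667). That call rested on rt-PA replicate 1, the highest library: without it the log2 fold change was -0.81, under 2-fold, with an edgeR adjusted p of 0.00967. The rt-PA+Acu and Sham groups did not overlap, and the log2 fold change was -0.42 (SE 0.10, edgeR adjusted p = 0.0505), with an adjusted p of 0.00927 by DESeq2 and of 0.0380 by edgeR without rt-PA+Acu replicate 3. From Model to rt-PA the log2 fold change was 0.10, with a 95% interval of -0.37 to 0.58.

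Plau, the gene of urokinase, was counted 3, 5 and 8 times in Sham and 478, 340 and 219 times in Model. In rt-PA it was counted 531, 395 and 299 times, and in rt-PA+Acu 18, 15 and 39 times. Model and rt-PA overlapped, and their 6 libraries all lay far above rt-PA+Acu, which in turn lay above every Sham library. The means were 29.1 ± 7.42 CPM in rt-PA, 27.8 ± 9.24 in Model, 1.91 ± 0.871 in rt-PA+Acu and 0.441 ± 0.234 in Sham (SD, n = 3). Plau was 62.9-fold higher in Model than in Sham (log2 fold change 5.98, SE 0.41, edgeR adjusted p = 2.53e-05) and 14.9-fold lower in rt-PA+Acu than with rt-PA alone (log2 fold change -3.90, SE 0.34, edgeR adjusted p = 0.00104). The log2 fold change between rt-PA and Sham was 6.01 (SE 0.35, edgeR adjusted p = 1.90e-05). Against Model it was 0.07, with a 95% interval of -0.58 to 0.71. The remaining difference between rt-PA+Acu and Sham was 2.12 on the log2 scale (SE 0.54), with an edgeR adjusted p of 0.0642, an adjusted p of 0.025 by DESeq2 and of 0.0367 by edgeR when all 12 libraries were fitted together. Plau made up 0.273 to 0.888% of the Plat and Plau counts in Sham, 11.2 to 26.4% in Model, 16.4 to 21% in rt-PA and 2 to 4.25% in rt-PA+Acu. These shares are of counts not scaled by gene length and serve only to compare groups.

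Plaur, the urokinase receptor, was high and low in the same groups as Plau. It was counted 11, 26 and 10 times in Sham, 379, 253 and 155 times in Model and 325, 325 and 200 times in rt-PA, against 16, 22 and 73 times in rt-PA+Acu. Every Model and rt-PA library lay above every Sham and rt-PA+Acu library, and Sham and rt-PA+Acu overlapped. Its mean was 1.25 ± 0.640 CPM in Sham, 21.0 ± 8.07 in Model and 20.2 ± 4.75 in rt-PA, against 2.90 ± 2.22 in rt-PA+Acu (SD, n = 3). The log2 fold change was 4.06 between Model and Sham (SE 0.42, edgeR adjusted p = 0.000137) and -2.77 for rt-PA+Acu against rt-PA (SE 0.48, edgeR adjusted p = 0.00598). Without rt-PA+Acu replicate 3 the latter was -3.62 (edgeR adjusted p = 0.000798). Between rt-PA and Sham it was 3.97 (SE 0.35, edgeR adjusted p = 7.60e-05). For rt-PA+Acu against Sham it was 1.22 (SE 0.61, edgeR adjusted p = 0.270), and 0.36 without rt-PA+Acu replicate 3. The value of rt-PA against Model was -0.06, with a 95% interval of -0.76 to 0.65.

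Plg, the zymogen, is made chiefly by the liver and was near the limit of detection in cortex. It was counted 12, 5 and 3 times in Sham, 8, 1 and 4 times in Model and 15, 1 and 7 times in rt-PA, against 2, 0 and 29 times in rt-PA+Acu. The groups overlapped throughout, rt-PA+Acu replicate 3 was the highest library and replicate 2 of the same group was at 0, and Plg did not pass the filter in any comparison. No difference in Plg was therefore tested with that filter.

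Markers of other cells were read beside the activators and the receptor. The summed level of the 8 monocyte and macrophage markers was 182 to 220 CPM in Sham, 201 to 290 in Model and 364 to 787 in rt-PA, against 96.9 to 139 in rt-PA+Acu, with Ms4a7 at 0 in every Sham library. Sham and Model thus overlapped in this sum while Plau and Plaur did not. Every rt-PA library exceeded every Model library in the sum, while Plau and Plaur overlapped. Fn1 was the largest part of the sum in Sham, with 128 to 152 CPM there and 70.8 to 127 in Model. Single markers differed from the sum: Msr1 had 0 to 0.611 CPM in Sham, 23.9 to 30.5 in Model, 35.7 to 47.9 in rt-PA and 1.1 to 15.4 in rt-PA+Acu. Of 6 markers tested between Model and Sham, 3 were called higher and 0 lower, where 9.43% and 12% of all genes were. The summed counts of the 8 markers came largely from Fn1 and Lyz2, and Plau was not scaled to single markers. Per 1000 of these summed counts, Plau had 1.33 to 3.43 counts in Sham, 62.4 to 182 in Model and 46.8 to 78 in rt-PA. In rt-PA+Acu it had 9.42 to 24.7. Its groups kept their separation on this scale, with Model and rt-PA overlapping. Plaur per 1000 of the same counts was 4.29 to 9.05 in Sham, 44.2 to 144 in Model and 28.6 to 64.1 in rt-PA, against 13.8 to 46.3 in rt-PA+Acu, and both Model and rt-PA overlapped rt-PA+Acu on this scale. Among 8 neutrophil markers, Mpo was at 0 in all 12 libraries, and the summed level was 7.26 to 11.8 CPM in Sham, 4.96 to 17.1 in Model and 15.1 to 82.1 in rt-PA, against 3.73 to 5.48 in rt-PA+Acu. Csf3r was the largest part of this sum in Sham (4.1 to 5.88 CPM, and 2.67 to 4.13 in Model). Cxcr2 had 0.242 to 0.96 CPM in Sham and 1.22 to 2.62 in Model. Of 4 neutrophil markers tested between Model and Sham, 1 was called higher and 0 lower, where 9.43% and 12% of all genes were. The 5 of 8 endothelial markers analysed summed to 122 to 166 CPM in Sham, 194 to 348 in Model and 238 to 354 in rt-PA, against 75.6 to 86.2 in rt-PA+Acu. Plat per 1000 endothelial marker counts was 516 to 643 in Sham, 411 to 528 in Model and 412 to 487 in rt-PA, against 736 to 848 in rt-PA+Acu, an order of group means (599, 488, 449 and 782) opposite to that of its CPM. That order rested on Kdr, a receptor for vascular endothelial growth factor, which had 12.7 to 20.5 CPM in Sham and 94.7 to 136 in Model, while Emcn fell from 11.3 to 13 CPM in Sham to 4.29 to 6.57 in Model (log2 fold change -1.25, SE 0.22, edgeR adjusted p = 0.00189). Without Kdr, an alternative added after the data had been seen, the means were 676, 947, 691 and 908. Per 1000 neuronal marker counts Plat averaged 23.3 counts in rt-PA, 18.7 in Model, 8.45 in Sham and 7.51 in rt-PA+Acu, the order of its CPM. The part of these cell markers in the differences of Plat, Plau and Plaur was not tested.

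**Figure D2:**
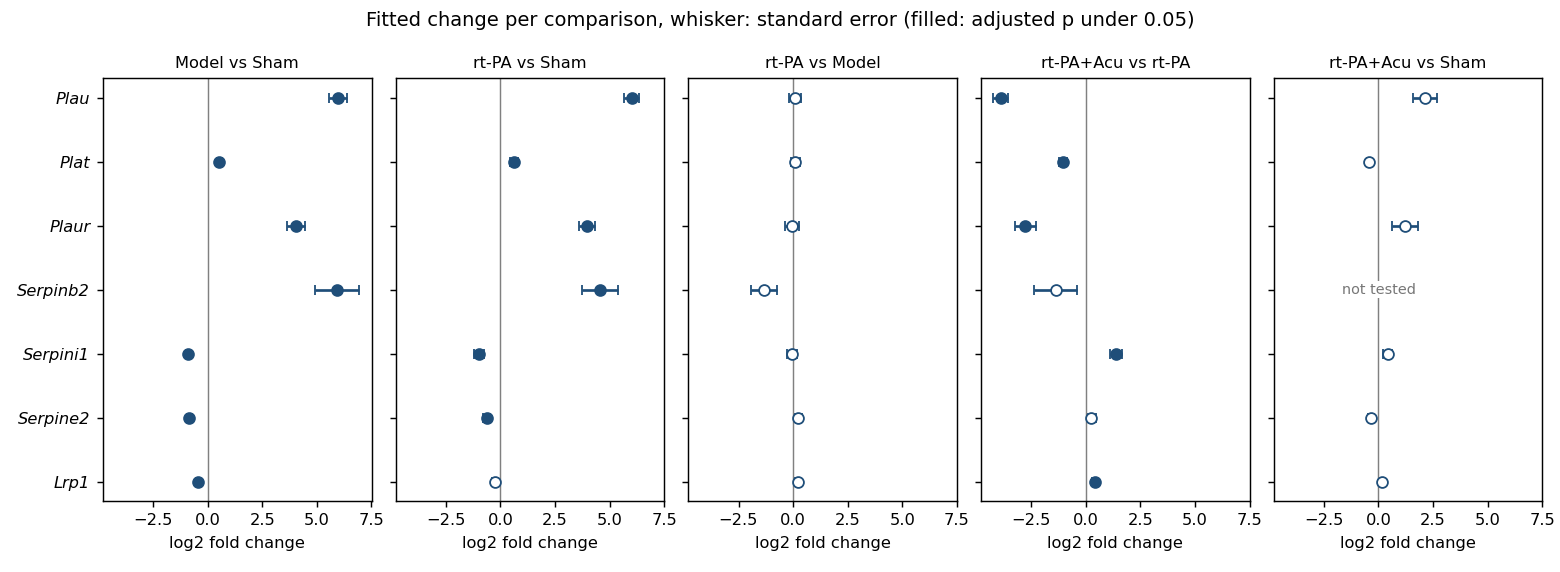
Log2 fold change of each member but Plg, which was not tested, with its SE in 5 comparisons, each fitted on 6 libraries, with filled points where the edgeR adjusted p was under 0.05. All points are open between rt-PA and Model, and Plau, Plaur and Plat lie below 0 between rt-PA+Acu and rt-PA while Serpini1 and Lrp1 lie above it.

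Serpini1, the neuronal inhibitor of tissue plasminogen activator, had 316, 301 and 278 CPM in Sham and 147, 178 and 153 CPM in Model. In rt-PA it had 101, 200 and 161 CPM, and in rt-PA+Acu 496, 428 and 277 CPM. Every Model and rt-PA library lay below every Sham and rt-PA+Acu library, Model and rt-PA overlapped, and rt-PA+Acu replicate 3 lay just under the lowest Sham library. The order of the means was rt-PA+Acu (401 ± 112 CPM, SD, n = 3), Sham (298 ± 19.0), Model (160 ± 16.1) and rt-PA (154 ± 50.3). Serpini1 was lower in Model than in Sham by 1.86-fold (log2 fold change -0.90, SE 0.10, edgeR adjusted p = 0.000188) and lower in rt-PA than in Sham by 1.96-fold (log2 fold change -0.97, SE 0.22, edgeR adjusted p = 0.00707). It was 2.6-fold higher in rt-PA+Acu than with rt-PA alone (log2 fold change 1.38, SE 0.29, edgeR adjusted p = 0.0109). Against Sham, rt-PA+Acu differed by 0.42 (SE 0.19, edgeR adjusted p = 0.238), and by 0.62 without rt-PA+Acu replicate 3 (edgeR adjusted p = 0.0170). The log2 fold change from Model to rt-PA was -0.05, with a 95% interval of -0.58 to 0.48. The summed neuronal markers were also lower in every Model and rt-PA library than in Sham, but the markers did not move together. Between Model and Sham 5 of the 8 were lower at the adjusted p, among them Camk2a (log2 fold change -2.30) and Map2 (-1.03), while Gad1, of inhibitory neurons, was higher (0.87, SE 0.13, edgeR adjusted p = 0.000876) and Snap25 and Nefl had values of 0.28 and 0.10 (edgeR adjusted p = 0.0719 and 0.518). Per 1000 neuronal marker counts Serpini1 had 27.3 to 31.5 counts in Sham, 22.9 to 27.7 in Model and 20.4 to 32.4 in rt-PA, against 42 to 51.4 in rt-PA+Acu. On this scale rt-PA+Acu lay above every other library, replicate 3 included, and Sham overlapped both Model and rt-PA. Camk2a is part of this sum, with 2520 to 2840 CPM in Sham, against 472 to 586 in Model and 276 to 558 in rt-PA. Serpini1 was not scaled without Camk2a, so the overlap of Sham with Model and rt-PA may rest on that marker.

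Serpine2, the gene of protease nexin-1, had 226, 279 and 242 CPM in Sham and 134, 151 and 132 CPM in Model. It had 159, 130 and 200 CPM in rt-PA and 232, 183 and 170 CPM in rt-PA+Acu. Sham lay above all Model and rt-PA libraries, Model overlapped rt-PA, and rt-PA+Acu overlapped both Sham and rt-PA. The means were 249 ± 26.8 CPM in Sham, 195 ± 32.6 in rt-PA+Acu, 163 ± 34.9 in rt-PA and 139 ± 10.4 in Model (SD, n = 3). Serpine2 was 1.78-fold lower in Model than in Sham (log2 fold change -0.83, SE 0.10, edgeR adjusted p = 0.000322), and the difference between rt-PA and Sham was -0.63 (SE 0.16, edgeR adjusted p = 0.0110). For rt-PA+Acu against rt-PA it was 0.26, with a 95% interval of -0.17 to 0.69 (edgeR adjusted p = 0.306), and for rt-PA against Model 0.23, with an interval of -0.13 to 0.60. Its value for rt-PA+Acu against Sham was -0.35 (SE 0.14, edgeR adjusted p = 0.174). The 6 astrocyte markers summed to 4630 to 5560 CPM in Sham, 1850 to 2200 in Model and 1630 to 2290 in rt-PA, against 3180 to 4460 in rt-PA+Acu. Per 1000 of their counts Serpine2 had 48.9 to 50.1 counts in Sham, 60.1 to 72.5 in Model and 71.6 to 97.9 in rt-PA, against 46.5 to 53.6 in rt-PA+Acu. Per astrocyte marker count, Serpine2 was thus above Sham in every Model and rt-PA library, opposite to its CPM. The part of neuronal and astrocyte markers in the differences of Serpini1 and Serpine2 was not tested.

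Serpinb2, the gene of plasminogen activator inhibitor 2, was almost absent from Sham, with 2, 0 and 0 counts. It was counted 71, 61 and 13 times in Model and 28, 14 and 22 times in rt-PA, against 1, 0 and 21 times in rt-PA+Acu. All Model and rt-PA libraries lay above Sham, Model and rt-PA overlapped, and rt-PA+Acu ranged from Sham levels in replicates 1 and 2 to rt-PA levels in replicate 3. Model was 72.4 times Sham in depth-scaled counts, with an exact Poisson 95% interval of 19.7 to 603 that covers counting error only, and rt-PA was 28.2 times Sham (7.5 to 238). The fitted log2 fold change between Model and Sham was 5.93 (SE 1.02, edgeR adjusted p = 0.00161) and between rt-PA and Sham 4.57 (SE 0.82, edgeR adjusted p = 0.00219). Without Sham replicate 1, which held both Sham counts, these were 8.59 and 7.34. The value for rt-PA against Model was -1.34, with a 95% interval of -2.71 to 0.02, an unadjusted p of 0.0532 in edgeR and an edgeR adjusted p of 0.505. That for rt-PA+Acu against rt-PA was -1.39 (SE 1.00, edgeR adjusted p = 0.311), and without rt-PA+Acu replicate 3 it was -4.87 (edgeR adjusted p = 0.00735). Serpinb2 did not pass the filter between rt-PA+Acu and Sham, where 22 counts against 2 gave a ratio of 11.1 (2.72 to 97.1), with 21 of the 22 in replicate 3. Per 1000 monocyte and macrophage marker counts it had 0 to 0.884 counts in Sham, 3.7 to 27 in Model and 2.47 to 4.03 in rt-PA, against 0 to 13.3 in rt-PA+Acu. The mean on this scale was 4.73 in rt-PA+Acu and 3.09 in rt-PA, opposite to the order in CPM, with replicate 3 the highest of its group.

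Lrp1, the clearance receptor, had 893, 856 and 884 CPM in Sham and 645, 605 and 672 CPM in Model. It had 770, 646 and 814 CPM in rt-PA and 958, 1010 and 988 CPM in rt-PA+Acu. All libraries of the last group lay above Sham, Sham lay above Model and rt-PA, and Model and rt-PA overlapped. Lrp1 was lower in Model than in Sham by 1.36-fold (log2 fold change -0.45, SE 0.08, edgeR adjusted p = 0.00177), and between rt-PA and Sham the value was -0.26 (SE 0.10, edgeR adjusted p = 0.0629). For rt-PA+Acu against rt-PA it was 0.41 (SE 0.13, edgeR adjusted p = 0.0418), and its adjusted p was over 0.05 under 7 alternatives, among them a block for the replicate number (edgeR adjusted p = 0.0899). Compared with Sham, rt-PA+Acu differed by 0.16 (SE 0.10, edgeR adjusted p = 0.374), and the value for rt-PA against Model was 0.22, with a 95% interval of -0.04 to 0.48. Per 1000 neuronal marker counts Lrp1 had 86.8 to 89.3 counts in Sham, 94.3 to 102 in Model and 104 to 156 in rt-PA. In rt-PA+Acu it had 99.3 to 150, so that with all 8 markers summed Sham was the lowest group. That sum includes Camk2a, which had 2520 to 2840 CPM in Sham, against 472 to 586 in Model and 276 to 558 in rt-PA. Lrp1 was not scaled without Camk2a, so the place of Sham may rest on that marker. The part of neuronal markers in the differences of Lrp1 was not tested.

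The balance within each library was described by the log2 ratio of Plat and Plau counts to Serpine2, Serpini1 and Serpinb2 counts. It is not scaled by gene length, so only its differences between groups can be read, and it counts these 3 inhibitors, not every inhibitor of the activators. The ratio was -2.62, -2.75 and -2.73 in Sham, -1.05, -1.17 and -0.83 in Model, -0.32, -1.30 and -1.43 in rt-PA and -3.60, -3.23 and -2.71 in rt-PA+Acu. Every Model and rt-PA library lay above every Sham and rt-PA+Acu library, rt-PA replicate 1 was the highest, and Sham and rt-PA+Acu overlapped. The ratio averaged -2.70 ± 0.07 in Sham, -1.02 ± 0.17 in Model and -1.02 ± 0.60 in rt-PA, against -3.18 ± 0.45 in rt-PA+Acu (SD, n = 3), or 15.4, 49.4, 49.4 and 11 activator counts per 100 inhibitor counts. Of the counts of the 3 inhibitors together, Serpini1 held 51.9 to 58.2% in Sham, 51.4 to 53.5% in Model, 38.5 to 60.5% in rt-PA and 61.7 to 70.1% in rt-PA+Acu, where each library lay above all others.

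**Figure D3:**
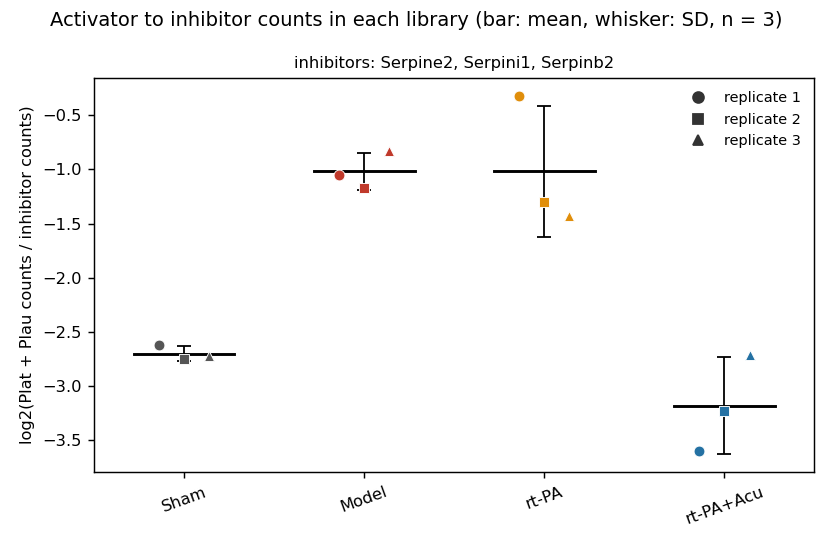
Log2 ratio of activator counts (Plat and Plau) to inhibitor counts (Serpine2, Serpini1 and Serpinb2) in each library by group, with points for libraries, bars for means and whiskers for the SD (n = 3). All 6 Model and rt-PA libraries lie above all Sham and rt-PA+Acu libraries.

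The other genes of the plasminogen system were read from a list of 37 by role. The roles were receptors and cofactors of plasminogen, other inhibitors, endocytic receptors and their chaperone, cleaved proteins, contact activators and partners of the urokinase receptor. The list was chosen with earlier results of these data known, so its shares beside those of all genes are a description and not a test. Between Model and Sham 28 were tested, 9 were called higher and 2 lower in Model, where 9.43% and 12% of all genes were, and their median log2 fold change was 0.28, beside 0.01 over all genes. The 5 largest called differences were those of Mmp3 and Mmp9, metalloproteinases of the matrix, Anxa2 and S100a10, the subunits of a cell surface complex that binds plasminogen and its activator, and Vtn. Mmp3 differed by 4.22 (SE 0.90, edgeR adjusted p = 0.00468), with 6, 1 and 1 counts in Sham and 87, 59 and 11 in Model, and Mmp9 by 4.10 (SE 0.19, edgeR adjusted p = 5.45e-06). Anxa2 was higher by 3.66 (SE 0.22, edgeR adjusted p = 1.56e-05) and S100a10 by 3.05 (SE 0.25, edgeR adjusted p = 5.02e-05). The 2 lower genes were Vtn, vitronectin, an adhesive protein of plasma and matrix, at -2.60 (SE 0.23, edgeR adjusted p = 6.78e-05), and Pdgfd, a growth factor that urokinase can cleave, at -2.30 (SE 0.39, edgeR adjusted p = 0.00150). By role, the called genes were 2 of 4 receptors and cofactors (Anxa2 and S100a10), 2 of 4 tested inhibitors (A2m and Serping1), 5 of 8 tested cleaved proteins (Mmp3, Mmp9, Bdnf, Vtn and Pdgfd) and 2 of 3 partners of the receptor (Itgam and Itgb2). By edgeR 0 of 8 genes of endocytic receptors and their chaperone and 0 of 1 tested contact activators were called. Of these, 5 and 0 had an unadjusted p under 0.05 in edgeR, and DESeq2 called 0 of both.

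For rt-PA against Model, 0 of 29 tested genes of this list were called by edgeR, and 11 had an unadjusted p under 0.05, where 9.92% of all genes did. DESeq2 called 3, where it called 0.595% of all genes: Bdnf (-1.70, DESeq2 adjusted p = 4.10e-09), Fn1, fibronectin (1.47, DESeq2 adjusted p = 0.000438), and Mrc1, an endocytic receptor of macrophages (1.34, DESeq2 adjusted p = 0.00127). For rt-PA+Acu against rt-PA, 11 of 29 were called lower in rt-PA+Acu and 1 higher, where 8.16% and 7.17% of all genes were, with a median of -0.12 beside -0.0027 over all genes. The largest were Mmp3 (-4.55, SE 0.66, edgeR adjusted p = 0.00331), counted 52, 31 and 59 times in rt-PA, against 2, 0 and 3 times in rt-PA+Acu, Anxa2 (-3.16, SE 0.31, edgeR adjusted p = 0.00118), Fga (-2.02, SE 0.56, edgeR adjusted p = 0.0283), Mmp9 (-1.98, SE 0.19, edgeR adjusted p = 0.00118) and Vtn. Fga, a chain of fibrinogen, was counted 16, 17 and 14 times in rt-PA, against 1, 3 and 6 times in rt-PA+Acu, and its adjusted p was over 0.05 under 6 of 12 alternatives, 5 of which left out 1 library (up to 0.0913). Vtn was the 1 gene called higher, by 1.97 (SE 0.29, edgeR adjusted p = 0.00360). Between rt-PA+Acu and Sham 5 of 27 tested genes were called higher and 1 lower, where 0.916% and 1.14% of all genes were, with a median of 0.07 beside 0.02 over all genes. The 5 were the protease inhibitors A2m (2.55, SE 0.38, edgeR adjusted p = 0.0126) and Serping1 (2.14, SE 0.35, edgeR adjusted p = 0.0157), Mmp9 (2.08, SE 0.21, edgeR adjusted p = 0.00334), Itgam, an integrin chain of myeloid cells that partners the urokinase receptor (1.69, SE 0.38, edgeR adjusted p = 0.0430), and S100a10 (1.23, SE 0.28, edgeR adjusted p = 0.0476). The lower gene was Bdnf, whose proneurotrophin plasmin cleaves (-1.11, SE 0.19, edgeR adjusted p = 0.0194). Of these 6 genes Mmp9 alone kept an adjusted p under 0.05 under all 13 alternatives. It was over 0.05 under 1 of them for Serping1 and 2 for A2m, each without a Sham library (up to 0.0789 and 0.0795), and under 3 for Bdnf, 5 for S100a10 and 6 for Itgam (up to 0.0902, 0.185 and 0.145). A2m and Serping1 thus differed from Sham in rt-PA+Acu and had log2 fold changes of -0.10 and -0.39 against rt-PA (edgeR adjusted p = 0.887 and 0.255).

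Between rt-PA and Sham 11 of 29 tested genes of the list were called higher and 2 lower, where 11% and 11.6% of all genes were, with a median of 0.45 beside 0.0028 over all genes. The 5 largest were Mmp9 (4.05, SE 0.21, edgeR adjusted p = 1.30e-05), Mmp3 (3.89, SE 0.61, edgeR adjusted p = 0.00118), Anxa2 (3.76, SE 0.24, edgeR adjusted p = 2.26e-05), Fga (3.24, SE 0.70, edgeR adjusted p = 0.00549) and S100a10 (2.95, SE 0.16, edgeR adjusted p = 1.64e-05). Vtn (-2.75) and Pdgfd (-2.05) were the lower genes, as between Model and Sham.

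**Figure D4:**
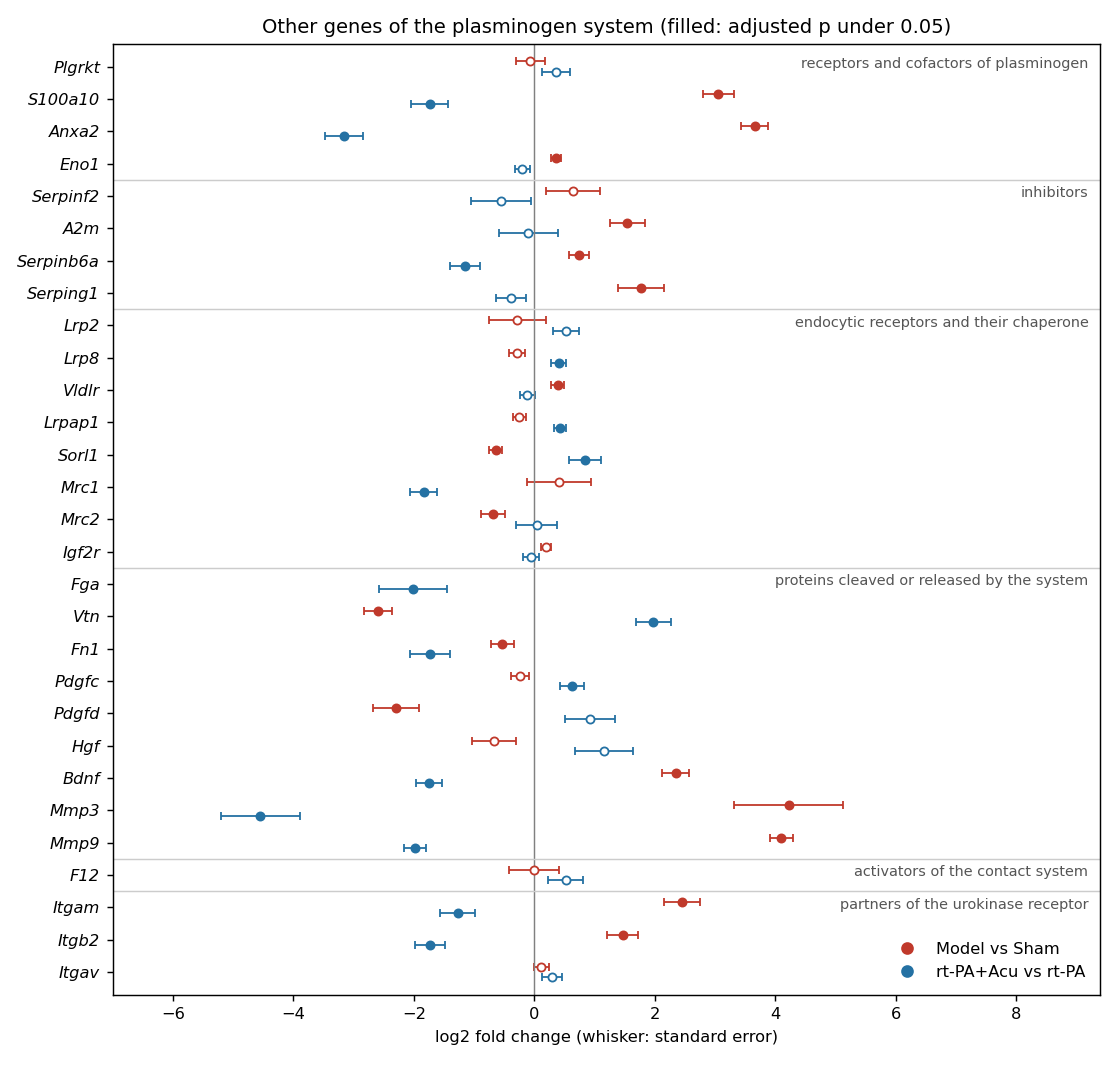
Log2 fold change of the tested genes of the plasminogen system by role, for Model against Sham and rt-PA+Acu against rt-PA, with bars for the SE and filled points where the edgeR adjusted p was under 0.05. Mmp3, Mmp9, Anxa2 and S100a10 lie to the right in Model against Sham and to the left in rt-PA+Acu against rt-PA, and Vtn lies on the opposite side in both.

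Genes with the pattern most like each member over the 12 libraries were found by the mean absolute gap between log2 CPM values centred on Sham, over 12744 genes. For Plat they were Podxl, Ccnl1 and Btg1 (gaps 0.107, 0.128 and 0.13), for Serpini1 Cadm2, Kcnip4 and Adgrb3 (0.126, 0.13 and 0.133) and for Serpine2 Laptm4a, Ntm and Sumf2 (0.109, 0.114 and 0.125). For Plaur they were A3galt2, Plin2 and Slc1a5 (0.274, 0.314 and 0.35), for Plau Hk3, Itga2 and Runx3 (0.462, 0.468 and 0.476) and for Serpinb2 Ptgs2, Pvr and Rrad (0.515, 0.537 and 0.546). The gaps were larger for the members with few Sham counts, and the choice of genes then depended in part on the prior count added before the logarithm. With 0.5 in place of 2 the genes nearest to Plau were Cyp1b1, Dspp and Socs3. Among their nearest genes Plaur kept A3galt2 and Plin2, and Serpinb2 kept Rrad. Lrp1 varied by less than 1 on the log2 scale and Plg had a mean under 1 CPM, so no genes were named for them.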

How the data were processed

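RNA from rat cerebral cortex was sequenced as stranded paired-end libraries. The authors aligned the reads to mRatBN7.2 with STAR 2.7.10a and counted uniquely mapped pairs on the Ensembl annotation with Salmon 1.9.0. The submitters' processing notes also name featureCounts 2.0.1, and the use of molecular identifiers is not given in the sources used here. The deposited values are raw counts per gene symbol, whole numbers without normalization or pooling, for 12 libraries. How Salmon estimates became whole numbers is also not given.

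The analysis used edgeR 4.0.16 in R 4.3.3, with TMM factors (0.9476 to 1.077) and filterByExpr, and every comparison was fitted on the 6 libraries of its 2 groups. The two-sided quasi-likelihood test was adjusted by Benjamini-Hochberg over all genes tested. Called genes had an adjusted p under 0.05 and differed by more than 2-fold, and 95% intervals use the t distribution and are not adjusted. The scripts were tested on simulated data. The members and gene lists were chosen with earlier results of these data known. All 8 members were named, and of the other 37 genes of the system the 5 largest called per comparison and any count of 5 or fewer. Further genes of that list are not reported here. The ratio of activators to inhibitors, planned per coding length, was computed on raw counts because no lengths were at hand. Alternatives were DESeq2 1.42.0, RLE and library size scaling, other filters, a joint fit, a replicate block, no fold threshold and leaving out each library. Totals per library were 11678450 to 13616935, and intervals from counts cover counting error only, since reads are not independent molecules. Motifs were searched on both strands of RefSeq promoters (GRCr8) in Python 3.11.15.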

Additional observations from a re-analysis of the deposited data

How the results depend on the processing

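Of 436 alternative values for the log2 fold changes of the members, 411 kept their direction and side of the threshold, 9 lost and 8 gained an adjusted p under 0.05, and 8 changed sign. All 8 sign changes were between rt-PA and Model, when 1 library was left out, in differences near 0: Plat -0.01 and -0.15 (range without 1 library -0.15 to 0.23), Plau -0.17 and -0.14 (-0.17 to 0.31), Plaur 0.24 and 0.11 (-0.32 to 0.24), and Serpini1 0.04 and 0.18 (-0.28 to 0.18). No member changed direction under another scaling, although scaling by library size alone moved the median of all genes between rt-PA and Sham by 0.147, and the share of called genes that were higher there from 48.7% to 57.8%. The cause of the changes below was not tested, except that a stricter filter removes genes and dropping the fold threshold adds them.

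The number of members called was 1 with a filter of 10 counts in every library, both between Model and Sham and between rt-PA and Sham, since Plau and Serpinb2 were then not tested. With no fold threshold it was 7 and 6 there, and with DESeq2 or a fit over all 12 libraries it was 1 between rt-PA+Acu and Sham. With no fold threshold, genes called over the whole table were 6951 for Model against Sham, 4522 for rt-PA+Acu against rt-PA, 651 for rt-PA+Acu against Sham and 7127 for rt-PA against Sham. Between rt-PA and Model, 0 genes were called by edgeR, 74 by DESeq2 and 2 by the fit over all 12 libraries, and leaving out 1 library gave 0 to 3 (3 without Model replicate 3, 1 without rt-PA replicate 1 and 2 without rt-PA replicate 3). Between rt-PA+Acu and Sham, where 263 genes were called, DESeq2 called 422 and leaving out 1 library gave 82 to 359 (146, 82 and 133 without Sham replicates 1, 2 and 3). The length-scaled form of the ratio was not run.

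Replicate numbers did not pair the libraries outside the comparison of Model and Sham. The correlation of same-numbered deviations was -0.121 to 0.146 over the 5 comparisons. Every library correlated best with its own number only between Model and Sham (6 of 6, with correlations of 0.0512 to 0.111), against 0 to 2 of 6 elsewhere. The labels do not say whether those libraries were paired. With the replicate block, 2756, 0, 1862, 194 and 2913 genes were called in the 5 comparisons, in the order of the report, and among the members Lrp1 between rt-PA+Acu and rt-PA lost its adjusted p (0.0899) and Serpini1 between rt-PA and Sham passed 2-fold (-1.02). Depth limits Plg and Serpinb2, with 3 to 12 and 0 to 2 counts in Sham.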
